A study of Mus musculus with 4 samples.

Results

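Lsamp, the gene of the limbic system-associated membrane protein, carried a run of low copy-number ratios inside its own span in 2 of 4 mouse liver tumours. It is 1 of 20749 gene names on the array, and it was described through all probes that carry its name or fall in a window of chromosome 16 whose first and last probes start at 41410758 and 42296854 (mm9). These were 83 of the 170305 probes measured, of which 62 are named Lsamp. Of the others, 9 are named AK164171, 6 are named Gap43, 3 are named ENSMUST00000099761 and 3 carry no gene name. Lsamp was picked because of its low ratios in these same tumours, so its ratios are given here as a description and carry no test.

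Copy number was measured by array comparative genomic hybridisation, in which tumour DNA and reference DNA carry different dyes and compete for the same probes. Each of the 4 liver tumours came from a separate untreated male Trp53-/- mouse, and its DNA carried the red dye Cy5. The green Cy3 reference was spleen DNA pooled from 3 littermates of the same sex, which the labels also give as Trp53-/-; the labelling protocol names liver as the reference tissue instead. Trp53 encodes the p53 tumour suppressor, and both sides of every ratio carry the Trp53-/- genotype. The labels used here name neither a Cre line nor a promoter for this genotype, and the share of tumour cells in each sample was not analysed here. All tumours form 1 group, and tumours are numbered 1 to 4 without any order. Values are log2 ratios of tumour over reference DNA, centred so that the median autosomal probe of each array is 0, and the loss of 1 of 2 copies in every cell would give -1.

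Lsamp belongs to the IgLON family of cell adhesion molecules, which carry immunoglobulin domains and are held on the outer cell surface by a GPI anchor. Its relatives are Opcml, Ntm, Negr1 and Iglon5, and the family is best known for guiding the growth and contacts of neurons. In humans, LSAMP has been reported as deleted in osteosarcoma. The Lsamp-named probes ran from 41536669 to 42143414, a span of 606.7 kb, with a median spacing of 9.71 kb between probes of the window. Exons and introns hit by these probes are not given, since only the positions and names of the array files were used on mm9.

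The low ratios of tumour 4 formed a stretch of 11 adjacent Lsamp probes, chr16:41702133-41794655. The probes printed here, in order along the chromosome and as the array files give them, set its ends and its uneven part. They are the last probe outside on the left, the first inside, probes 2 and 3 of the stretch, which were only partly low, probe 4, where the deep part begins, the last inside and the first outside on the right. Each is a single 60-base probe measured as a whole, so no base is in capitals. None of them shares a run of 20 bases with a non-control probe elsewhere on the array. Probes of the stretch and its flanks were not compared with each other.
Last probe outside on the left, chr16:41688714-41688773: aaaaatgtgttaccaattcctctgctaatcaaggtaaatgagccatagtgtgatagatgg
First probe of the stretch, chr16:41702133-41702192: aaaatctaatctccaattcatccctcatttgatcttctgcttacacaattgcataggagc
Probe 2 of the stretch, partly low, chr16:41710203-41710262: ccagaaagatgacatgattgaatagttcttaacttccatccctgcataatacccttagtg
Probe 3 of the stretch, partly low, chr16:41722299-41722358: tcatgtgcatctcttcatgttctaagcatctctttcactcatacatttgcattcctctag
Probe 4 of the stretch, start of the deep part, chr16:41728680-41728739: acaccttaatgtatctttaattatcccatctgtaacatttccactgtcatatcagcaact
Last probe of the stretch, chr16:41794596-41794655: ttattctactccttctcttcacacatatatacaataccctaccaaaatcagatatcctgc
First probe outside on the right, chr16:41803313-41803372: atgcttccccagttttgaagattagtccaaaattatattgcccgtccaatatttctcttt

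Inside the stretch the tumours took 3 different levels. The 11 probes averaged 0.05, -0.77, 0.0044 and -4.74 for tumours 1 to 4, with SDs over probes of 0.22, 0.28, 0.20 and 1.99. In tumour 4, 6 of these probes were not well above background; with upper bounds in their place the mean was -3.96. Of the 11 probes, 0, 8, 0 and 11 were below -0.5 for tumours 1 to 4. Over all autosomal probes the share below -0.5 was 5.99%, 9.07%, 0.888% and 1.96% in tumours 1 to 4. Lsamp was chosen on these ratios, so nothing is read from that contrast. Tumours 1 and 3 stayed near 0, tumour 2 lay between -1.18 and -0.38, and tumour 4 lay below tumour 2 at every probe of the stretch.

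**Figure D1:**
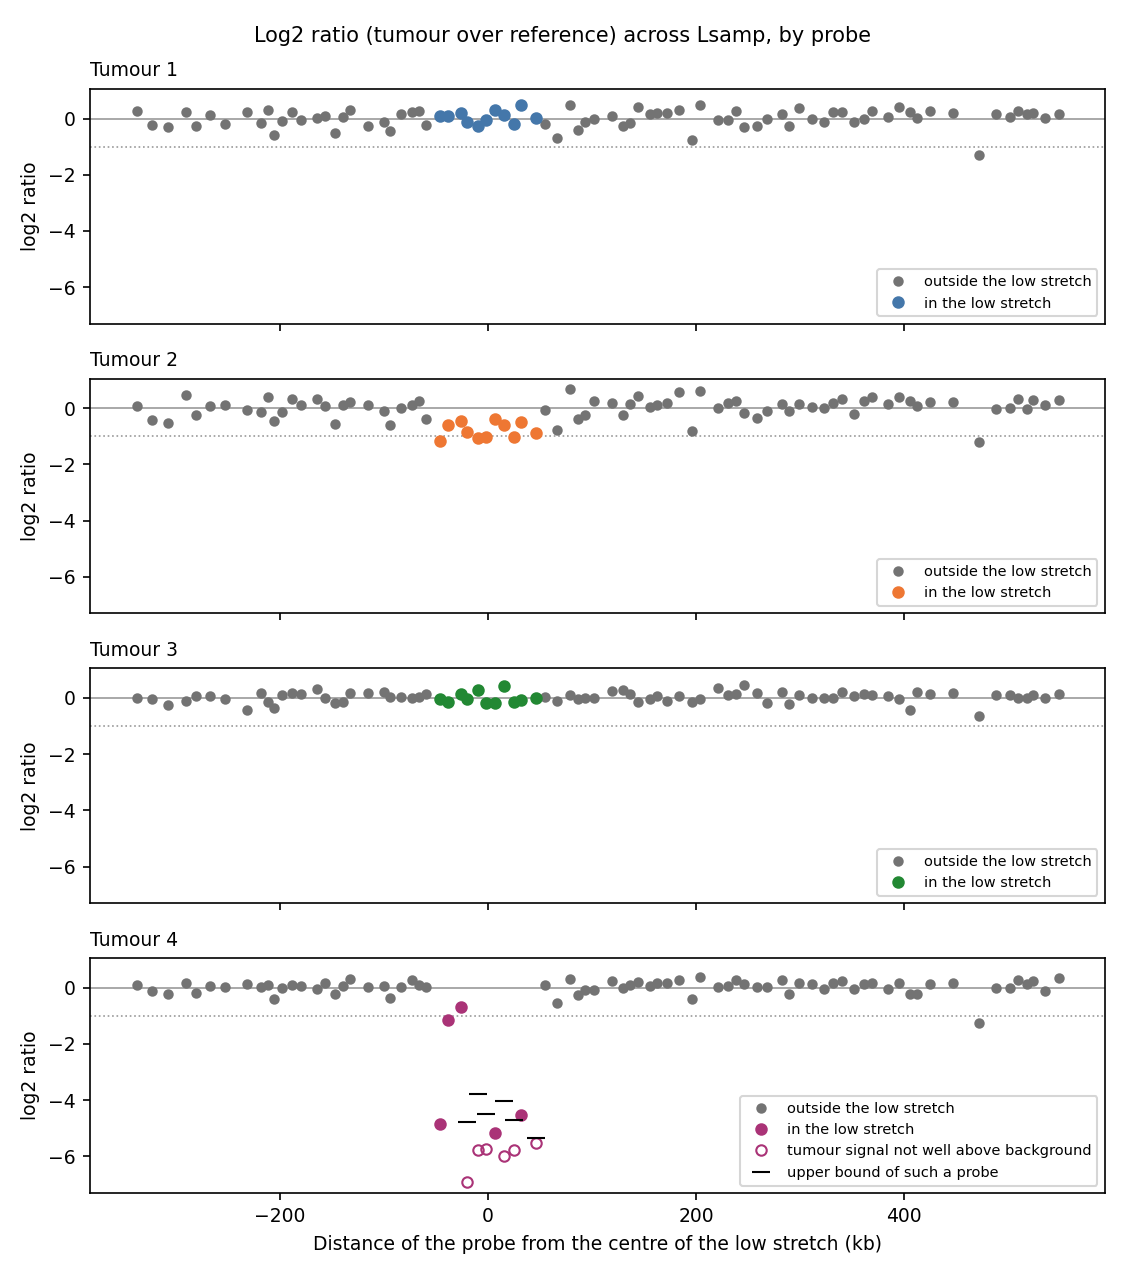
Log2 ratio of tumour over reference DNA at each of the 83 probes (points), with 1 panel per tumour, against the distance in kb from the centre of the low stretch. Coloured points are the 11 probes of the stretch, open circles are probes not well above background with their upper bounds as bars, and the dotted line is at -1. The 11 probes of the stretch averaged -4.74 in tumour 4 (-3.96 with the bounds) and -0.77 in tumour 2, while tumours 1 and 3 averaged 0.05 and 0.0044.

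The ends of the loss in tumour 4 depended on how the uneven left side was treated. A single interval fitted by least squares took 8 probes, chr16:41728680-41794655, and accounted for 87.6% of the sum of squares in the window. Over these 8 probes the ratio averaged 0.03, -0.78, 0.01 and -5.68 for tumours 1 to 4, and -4.61 in tumour 4 with bounds. The mean over tumours was -1.61 ± 2.74 (SD, n = 4), and without tumour 4 it was -0.25. A run of probes below -1 that may bridge 1 probe took 3 more on the left and gave the 11-probe stretch, at least 92.5 kb and at most 114.5 kb long. The left end then lies in a 13.4 kb gap between probes, from 41688773 to 41702133, and the right end in an 8.66 kb gap from 41794655 to 41803313. At the last probe outside on the left, ratios were -0.23, -0.38, 0.14 and 0.02 in tumours 1 to 4, and at the first probe outside on the right they were -0.18, -0.06, 0.03 and 0.10.

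In tumour 2 the loss was shallower and its ends were harder to place. The interval fit on tumour 2 alone took 14 probes, from 41688714 to 41814918, with a mean of -0.69. A run below -1 took 2 probes, and penalised segments of the whole chromosome found no low segment there. The interval accounted for 42.6% of the sum of squares, hardly more than the 42.1% of the next best interval. The probe at 41814859, inside this interval, read -0.69, -0.78, -0.10 and -0.56 in tumours 1 to 4, so it was low in tumours 1 and 4 as well. Probe-to-probe differences were shared between arrays: over the 51 Lsamp probes outside the stretch the ratios of tumour 2 correlated with those of tumour 1 at r = 0.905 and with those of tumour 4 at r = 0.826. Tumour 1 and tumour 4 correlated at r = 0.864, and the pairs with tumour 3 at 0.153, 0.220 and 0.406 for tumours 1, 2 and 4. These are descriptions across probes that share a probe design.

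Subtracting tumour 1 probe by probe, a step added after the data were seen, narrowed the spread of tumour 2 over the 72 probes of the window outside the stretch to an SD of 0.15, against 0.34 before. The interval fit on tumour 2 minus tumour 1 took 11 probes, 41702133 to 41794655, the same 11 as the stretch of tumour 4. Inside, the difference averaged -0.83 ± 0.18 (SD over 11 probes) and ran from -1.26 to -0.65. Outside, it averaged 0.03 ± 0.15 over 72 probes and ran from -0.30 to 0.38. The fit picked these 11 probes on the same differences, and Lsamp was chosen on these ratios, so nothing is read from the separation. With tumour 3 subtracted from tumour 2 instead, the 11 probes averaged -0.78 ± 0.34 (SD) and ran from -1.33 to -0.21. At the 51 Lsamp probes outside the stretch, that difference had an SD of 0.33. The same fit on tumour 4 minus tumour 1 took the 8 probes of the deep interval at -5.71 ± 0.53 (recorded ratios, 6 of them not well above background), and a run below -0.5 took 11 probes in both tumours. For tumour 3 minus tumour 1 the best interval was a higher one, at 0.33, and explained 6.33% of the sum of squares. The right ends of tumours 2 and 4 fell in the same gap between probes in these fits of the difference. The left ends did so with the run below -0.5 but not with the interval fit, and no end can be placed more closely than the gap it lies in.

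**Figure D2:**
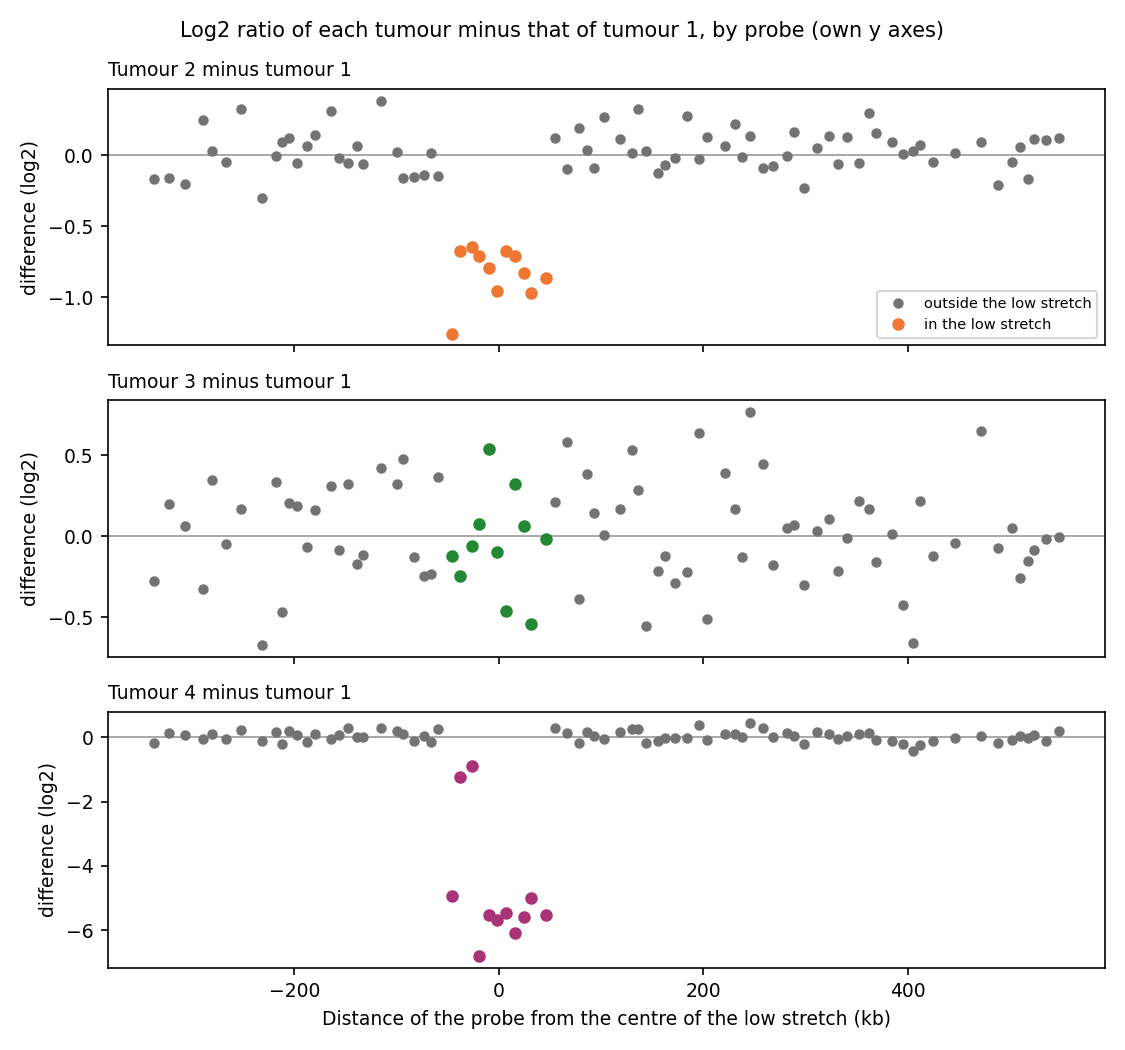
Difference in log2 ratio between each of tumours 2, 3 and 4 and tumour 1 at each probe, against the distance in kb from the centre of the low stretch, with a y axis of its own in each panel. In tumour 2 the 11 probes of the stretch lie between -1.26 and -0.65, below all 72 probes outside, which lie between -0.30 and 0.38. Lsamp was chosen on these ratios, so nothing is read from this separation.

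The tumour 4 signals were near or below the detection limit at most probes of the stretch. The first probe, at 41702133, read 0.08, -1.18, -0.04 and -4.85 in tumours 1 to 4. Probe 4, at 41728680, read -0.12, -0.83, -0.05 and, in tumour 4, where it was not well above background, -4.79 or lower. The last probe, at 41794596, read 0.0019, -0.86, -0.02 and, in tumour 4, where it too was not well above background, -5.34 or lower. Tumour 4 was far below the other 3 tumours at each of these probes, and tumour 2 was below tumours 1 and 3. Tumour 4 shared its slide with tumour 1, which stayed near 0 in the stretch, and tumours 2 and 3 had a slide each.

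Of the 11 probes, 6 were not well above background in the tumour DNA of tumour 4, so their ratios are only bounded, with the lowest signal well above background on that array. The lowest such signal, 42.6, belongs to the Lsamp probe at 41755448, inside the stretch itself. With the bounds in place, the mean log2 ratio of the 8 probes of the deep interval was at least 24.5-fold below the reference. This mean leaves at most 4.09% of the reference signal. Single probes can lie above it, with bounds of up to 7.21%. These bounds hold for the deposited ratios, and the size of the loss depends on the processing. Normexp correction, with an offset of 50 added to both channels, gave a mean of -2.21 in place of -5.68. How much of that change came from the offset was not tested. Over the same 8 probes tumour 2 held 58.0% of the reference signal. A single ratio cannot tell loss of 1 copy in all cells from loss of both copies in part of the cells. Loss here means signal lower than that of the reference, which came from littermates. Whether a difference was inherited or arose in the tumour was not tested.

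The fluorescence of each dye shows in which DNA the signal was missing. In tumour DNA the median processed signal over the stretch was 1228, 714, 1348 and 37.6 in tumours 1 to 4, and in reference DNA it was 1188, 1328, 1389 and 1271. At the 51 Lsamp probes outside the stretch the medians were 1098, 1183, 1157 and 1204 in tumour DNA and 1098, 1163, 1199 and 1172 in reference DNA. Set against the array of tumour 1, tumour DNA in the stretch differed by -0.68 ± 0.22 on the log2 scale in tumour 2 and by -4.64 ± 1.90 in tumour 4 (SD over 11 probes, dim ones at their recorded signal). Reference DNA differed by 0.11 ± 0.16 and 0.11 ± 0.08 on the same arrays. The low ratios thus went with low tumour signal, and the reference signal was not raised by a like amount.

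**Figure D3:**
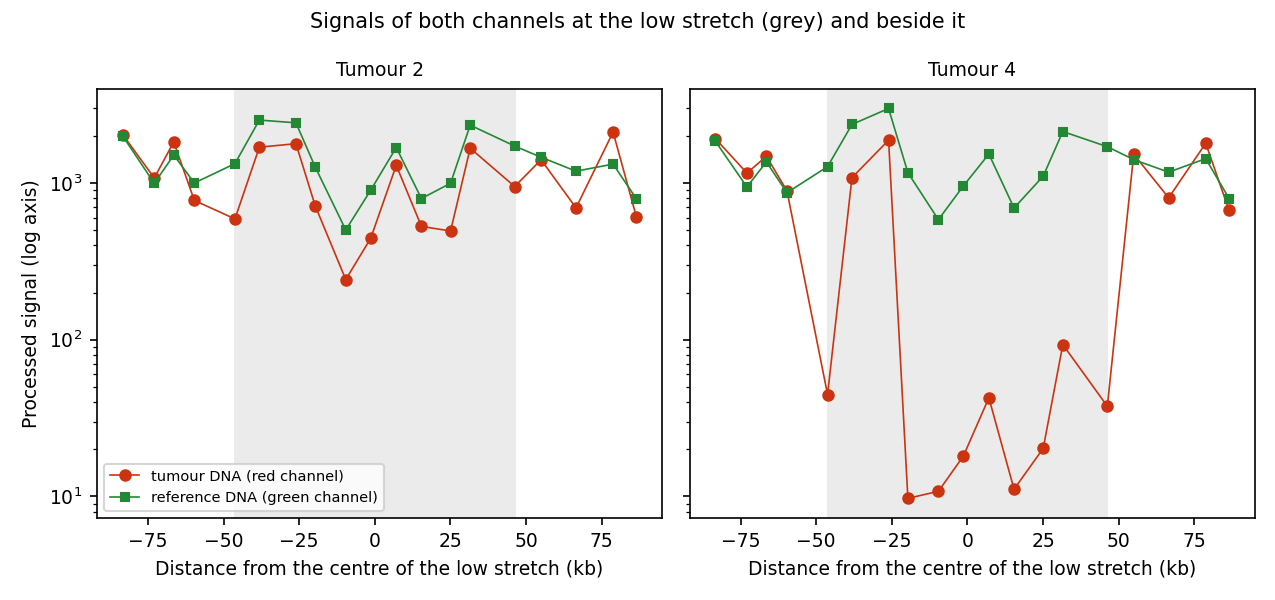
Processed fluorescence (log axis) of tumour DNA and reference DNA at the probes of the low stretch (grey) and beside it in tumours 2 and 4, against distance in kb from the centre of the stretch. The median tumour DNA signal in the stretch is 37.6 in tumour 4 and 714 in tumour 2, against reference DNA medians of 1271 and 1328 on the same arrays.

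Probes 2 and 3 of the stretch, at 41710203 and 41722299, kept far more signal than their neighbours in tumour 4. Probe 2 read 0.09, -0.58, -0.15 and -1.14 in tumours 1 to 4, and probe 3 read 0.20, -0.45, 0.14 and -0.69. In tumour 4 they held 45.2% and 62.1% of the reference signal, and in tumour 2 they held 66.8% and 73.2%. Both lie between probe 1, at -4.85 in tumour 4, and probe 4, at -4.79 or lower, and they were singled out after their values were seen. What holds their tumour signal up was not tested.

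Tumour 4 lay below tumour 2 at every probe of the stretch, also with the bounds. Of the 9 probes other than probes 2 and 3, 3 were measured above background in tumour 4 and held 2.75% to 4.32% of the reference signal. The other 6 held at most 2.47% to 7.21%. Over the same 9 probes tumour 2 held 56.3% of the reference signal, and it lacked between 23.4% and 55.8% at single probes. Tumour 4 thus lost most of the signal at 9 of the 11 probes, whereas the loss in tumour 2 was partial and, as given above, was not found by every rule for its ends.

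The rest of Lsamp stood near 0 in all 4 tumours. The 51 Lsamp probes outside the stretch averaged -0.0029, 0.04, 0.05 and 0.05 in tumours 1 to 4, and 0.04 ± 0.03 over tumours (SD, n = 4). The 17 to the left averaged -0.03, -0.01, 0.04 and 0.01, and the 34 to the right 0.01, 0.07, 0.06 and 0.06. The stretch covered 15.2% of the span of the Lsamp probes, starting 165.5 kb after the first and ending 348.8 kb before the last. At the edges of the window, the first probe inside, at 41410758, read 0.26, 0.09, -0.02 and 0.09, and the nearest outside, at 41384119, read -0.26, -0.23, 0.15 and -0.13. On the right, the last inside, at 42296854, read 0.15, 0.28, 0.15 and 0.35, and the nearest outside, at 42304167, read 0.38, 0.19, -0.28 and 0.04.

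Genes beside Lsamp averaged between -0.05 and 0.03, with flanks of 50 kb included. On the left, AK164171 averaged -0.05 over tumours, Igsf11, an immunoglobulin-domain adhesion molecule, 0.02, and 4930435E12Rik 0.03. On the right, ENSMUST00000099761 averaged -0.01, Gap43, a growth cone protein of neurons, -0.01, and AK016521 0.02. Without the flanks, 4930435E12Rik averaged -0.07, ENSMUST00000099761 0.06 and Gap43 0.07, each with a changed sign, and the other neighbours kept theirs. Chromosome 16 outside the window averaged -0.0004, -0.03, 0.0022 and -0.02 in tumours 1 to 4.

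Of the 4 IgLON relatives, 3 were measured and Iglon5 was not analysed here, and none of the 3 passed limma's moderated test against 0 with Benjamini-Hochberg adjustment over 20795 gene items. In that test 9 items passed (8 lower, 0.0385% of those tested, and 1 higher, 0.00481%), together 0.0433%. An unadjusted limma p under 0.05 was found for 0 of the 3 relatives and for 4270 of the 20795 items, so with 3 genes nothing is read from this count. Opcml on chromosome 9 read -0.31, -0.17, -0.06 and 0.03 in tumours 1 to 4, with a mean of -0.13 ± 0.15 (SD, n = 4; limma adjusted p = 0.27). Ntm, its neighbour on chromosome 9, read -0.27, -0.14, -0.04 and 0.06, with a mean of -0.10 ± 0.14 (SD, n = 4; limma adjusted p = 0.36). Negr1 on chromosome 3 read -0.0026, -0.0014, 0.06 and 0.0021, with a mean of 0.01 ± 0.03 (SD, n = 4; limma adjusted p = 0.80). The lowest mean of 7 adjacent probes in any tumour was -0.57 in Opcml, -0.53 in Ntm and -0.12 in Negr1. In Lsamp it was -5.70, with dim probes at their recorded ratios. Lsamp was chosen on these ratios, so nothing is read from its contrast with the relatives.

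Among 161237 windows of 11 adjacent autosomal probes, the lowest outside the window of Lsamp averaged -4.11 in tumour 4, beside -4.74 for the Lsamp stretch, or -3.96 with its bounds. Both hold probes not well above background, so they were not ranked. In tumour 2, 27 windows outside were as low as its -0.77. Neighbouring windows share probes, so this is not a count of separate regions. Tumour 4 had 2 runs of at least 3 adjacent autosomal probes below -2, the deep interval in Lsamp and 11 probes of chromosome 11 from 70989862 to 71107103, named Nlrp1b, DQ117583 and Nlrp1c. That second run was low in all 4 tumours, at -3.74, -4.37, -5.05 and -4.11, whereas the Lsamp interval was low in tumours 2 and 4.

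Other windows were set beside the Lsamp pattern over the 4 tumours, taken as the means of the 8 probes of the deep interval. Its tumour 4 mean was the recorded -5.68, which is -4.61 with bounds, so the distances depend on dim probes. Lsamp was chosen on these ratios, so its distance from other windows is only a description. Of 161224 windows of 7 adjacent probes, the nearest by Euclidean distance lay on chromosome 11 from 83446053 to 83505638, with no gene name, at a distance of 4.63 log2 units, and read -1.02, -1.07, -0.28 and -1.19. The next were a window named Nlrp1c, which read -1.33, -1.66, -1.90 and -1.53, and one named Slfn5, Slfn9 and Slfn8, which read -0.80, -1.11, -0.35 and -0.93. All 3 averaged below -0.5 in tumour 1, where the deep interval of Lsamp averaged 0.03.

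Very long genes, some of which are known as fragile sites, were set beside Lsamp. Of 15 such genes, 14 had probes, and none of the 14 had a 7-probe mean below -1 in any tumour. The lowest was in Pde4d, a cAMP phosphodiesterase gene, at -0.56 in tumour 2, with -0.29, -0.19 and -0.17 in tumours 1, 3 and 4. In Lsamp the lowest 7-probe means were -0.14, -0.79, -0.05 and -5.70 in tumours 1 to 4, the last with dim probes at their recorded ratios. Lsamp was chosen for its low ratios, so nothing is read from its contrast with the long genes.

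**Figure D4:**
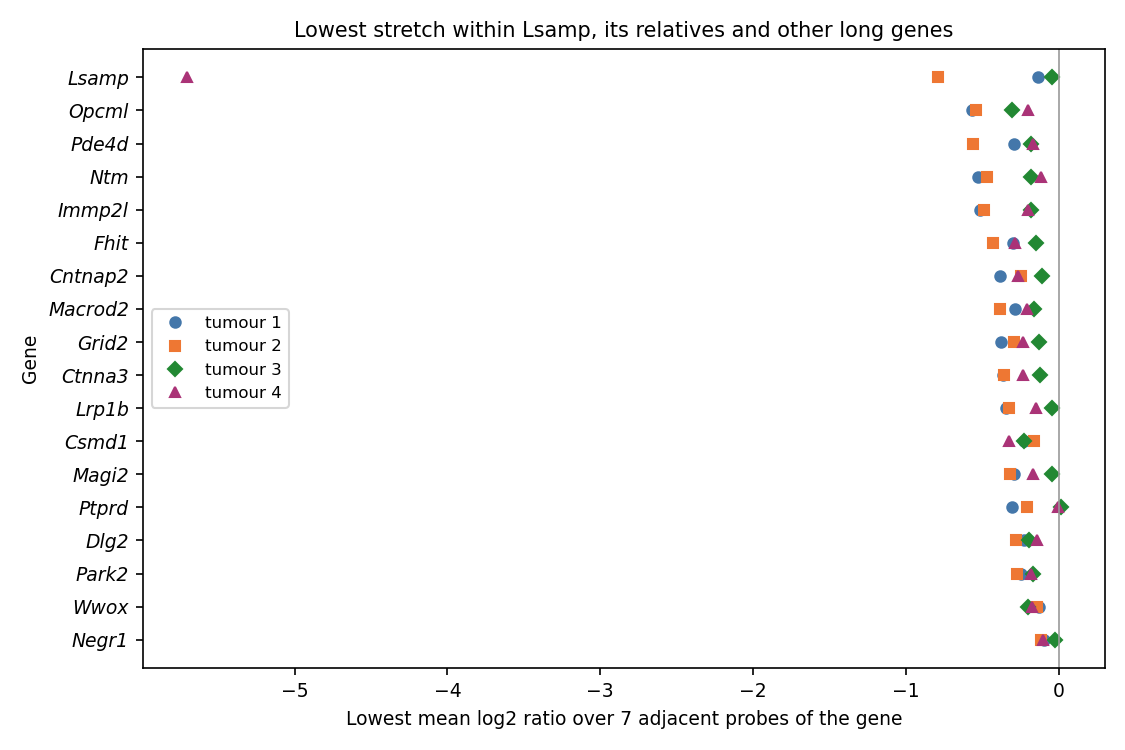
Lowest mean log2 ratio of 7 adjacent probes in each tumour, for Lsamp, its measured IgLON relatives and 14 long genes. Lsamp reaches -5.70 in tumour 4, with dim probes at their recorded ratios, and -0.79 in tumour 2. The lowest of the long genes, Pde4d, reaches -0.56. Lsamp was chosen on these ratios, so nothing is read from the contrast.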

How the data were processed

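Genomic DNA of 4 liver tumours was compared with pooled reference DNA on Agilent 2-colour arrays of 180880 spots on 3 slides; tumours 1 and 4 shared a slide. Per the file headers, the deposited log10 ratios are red (tumour) over green (reference), after the scanner software had removed spatial trends and background and scaled the dyes linearly. The deposited intensity values are the processed and raw signals with local background, per the file headers. That software was Agilent Feature Extraction 10.7.3.1, per the submitters' processing notes. The series value table, also deposited as log10 values, matched all 180880 spots of each array within 0.5%. Positions are on mm9, per the file headers.

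The deposited ratios were converted to log2 values. Control spots and 93 to 126 outlier spots per array were left out, spots of 1 probe were averaged, and arrays were centred on the autosomal median. Dim probes were bounded by the lowest tumour signal well above background, 53.8, 68.3, 53.4 and 42.6 on arrays 1 to 4. Ends of the low run came from a least-squares interval of at least 3 probes. A gene's value averages its named probes and all probes between them, with a flank of 50 kb at both ends, tested with limma 3.58.1 in R 4.3.3 (moderated intercept, Benjamini-Hochberg adjusted p under 0.05). With 4 arrays the precision is limited. Only the limma test and the interval fit were run on simulated data, the fit with an evenly low interval in independent noise. Probe differences shared between arrays and partly low probes were not simulated.

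Members, lists and tests were chosen with earlier results of these data known. Named genes are Lsamp, its IgLON relatives, up to 3 named neighbours on each side, the 3 windows nearest in pattern, runs below -2 in tumour 4 and the long gene with the lowest 7-probe mean. Alternatives were normexp (offset 50), mode centring, ratios of the value table, leaving out dim probes, bounds, GC correction, medians, other rules for the ends, no flank and leaving out each tumour.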

Additional observations from a re-analysis of the deposited data

Results flagged for a closer look

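The mean ratios of the 3 IgLON relatives and the 6 neighbouring genes, 9 in all, were checked for a tumour standing apart from the other 3 with Dixon's ratio. Tumour 3 stood apart in Negr1, at 0.057, which is 1 of the 9, and chance alone gives about 1 in 20 groups. The ratios of Lsamp itself were not tested, because the gene was chosen on them.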

How the results depend on the processing

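Of 90 values recomputed under alternatives, 7 were marked as moved. For means of the low run this took a shift of at least 1 SD, and for counts of low probes a clear change. Counts of IgLON relatives past the test were entered as unchanged without a rule, and were 0 under every alternative. Means of the IgLON genes were checked for a change of sign only, and 2 changed sign. A shift without a change of sign was not marked there, as in Negr1, at 0.083 after normexp against 0.014. Values near 0 in tumours 1 and 3 also changed sign within their spread, to -0.0073 in tumour 1 with mode centring and, with medians, to -0.033 in tumour 1 and -0.056 in tumour 3. The mean of the deep interval in tumour 4, -5.68, became -2.21 after normexp, -4.86 with only the probes well above background, -4.61 with dim probes at their bounds and -4.74 over all 11 probes of the stretch, the last added after the data were seen. The number of low probes in tumour 2, 14, became 2 with a run below -1 and 0 with penalised segments, and that in tumour 4, 8, became 13 with a run below -0.5. Leaving out each tumour gave -2.15 to -0.25 for the mean of the deep interval over tumours, the highest without tumour 4, and normexp gave -0.75, against -1.61 with all tumours. Leaving out each tumour gave 0 to 0 for the IgLON relatives past the test. An unadjusted limma p under 0.05 was found for 1 of the 3 with mode centring, beside 5230 of the 20795 items. Without tumour 4 it was found for 2 of the 3, beside 3479 items. Negr1, 0.01, reversed to -0.016 with mode centring, and leaving out each tumour gave -0.00065 (without tumour 3) to 0.019. The 9 gene items past limma became 4 after normexp, 31 without flanks, 0 without tumour 2 and 3 without tumour 4. No paired analysis was possible because all tumours form 1 group. The spacing of probes limits the ends, and signals near background limit the depth in tumour 4.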

Other observations

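A probe to the right of Lsamp with no gene name, at 42219864, was low in all 4 tumours, at -1.30, -1.20, -0.65 and -1.25 in tumours 1 to 4. It was singled out after its values were seen.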
